A study of Rattus norvegicus with 10 samples.

Results

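Proteasome subunit genes were measured in testes of Zucker rats, and 43 genes of the family were followed among the 18166 genes with a probe set of their own. A gene was a member if its symbol in the platform annotation was Psma, Psmb, Psmc, Psmd, Psme, Psmf or Psmg followed by a number, and if a probe set carried that symbol alone. The RefSeq table of rat genes lists 48 protein-coding genes of this kind. Of the other 5, Psma3 and Psme3 shared their probe sets with other genes, and Psma8, Psmd10 and Psmg3 were not analysed here because no probe set was assigned to them. The planned contrast of Psma8, the testis form of an alpha ring subunit, with its somatic counterpart Psma7 was therefore not possible, and Psma7 is described alone.

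The series held 10 arrays in 3 groups. Obese rats gave 4 arrays of normally developed testes (normal obese) and 4 of under-developed testes (under-developed), and lean rats gave 2 arrays of normally developed testes. The labels give every sample the Zucker (fa/fa) model, in which both copies of the leptin receptor gene are mutated, and an age of 14 weeks, at sexual maturity; the phenotype is given as Obese or Lean, and the lean samples carry the same fa/fa tag, so their genotype was not settled. Samples are called biological replicates, but no label ties them to separate animals. The spread behind each p-value is therefore that of these samples, which may be technical. Whole testis was used, so fewer cells of a type and less RNA per cell cannot be told apart. Values are log2 expression values made by RMA, which subtracts background, brings the arrays to a common distribution and combines the probes of each set into 1 value. One unit is therefore a 2-fold difference, and the level of one gene cannot be set against that of another.

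The proteasome is the protease that degrades proteins tagged with ubiquitin. Its core particle, called 20S, is a barrel of alpha and beta rings, and 3 of the beta subunits carry the cutting sites. A cap called 19S, made of a ring of ATPases (Psmc) and of further subunits (Psmd), binds the ubiquitin chain, removes it and unfolds the protein. Under interferon the cutting subunits Psmb5, Psmb6 and Psmb7 can be replaced by the immune forms Psmb8, Psmb9 and Psmb10, which favour peptides for presentation on class I molecules, while in male germ cells the core and its activators take on testis forms during meiosis and spermatid maturation.

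The tissue label was borne out by germ cell markers, which were high on the array's scale in every normally developed testis. The mean of 10 spermatid markers lay between 12.23 and 12.26 in the normal obese arrays. Under-developed replicates 1, 2 and 3 correlated over all genes with the 6 normal arrays at 0.856, 0.946 and 0.731 (mean Pearson r). Replicate 4 correlated with them at 0.995, within the range of the normal arrays among themselves (0.994 to 0.997). In under-developed replicates 1 to 4 the spermatid list differed from the normal obese mean by −2.64, −0.70, −4.36 and −0.05 log2, and 10 macrophage markers by 2.21, 1.37, 2.05 and −0.08. Replicate 4 thus stood apart from its group, and fitted differences of the members described in detail are given with it and without it. The smaller differences of other members are given without it alone, since 0 members passed with all arrays. Its omission was chosen with these values known.

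The first comparison set under-developed against normally developed testes of obese rats. In under-developed replicates 1 to 3 the immune subunits Psmb8, Psmb9 and Psmb10, the activator subunits Psme1 and Psme2 and the core subunit Psma7 were higher than in every normal obese array. Psmf1, which encodes the proteasome inhibitor PI31, was lower by more than any other member, and several 19S genes were lower too. In replicate 4 the 43 members lay near the normal arrays, and 0 of them reached a 2-fold difference in either direction (0.0385% of all genes did so upward and 0.0055% downward). Most members were slightly lower there. Their median was −0.10 log2 from the normal obese mean, against about 0 over all genes. In the lean arrays the member median was −0.09 and −0.04. In replicates 1 to 3 together, 22 members were above all normal obese arrays and 13 below them, against 30.7% and 27.8% of all genes. With all arrays limma called 0 of 43 members at an adjusted p under 0.05, where 0% of all genes were called. At an unadjusted p under 0.05, 26 members passed in limma (15 higher and 11 lower), against 46.6% of all genes (24.4% higher and 22.3% lower), and the smallest adjusted p of a member was 0.0702.

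Without under-developed replicate 4, limma called 33 of the 43 members, of which 20 rose and 13 fell. Of all genes, 56% were called, 29.6% higher and 26.4% lower, so a call by itself does not set a member apart from the other genes of the array. The balance of directions depended on the scaling. It was 16 higher and 13 lower with arrays centred on their medians, 23 and 7 after quantile normalization, and 14 and 18 with arrays centred on 127 ribosomal protein genes, which moved the median of all genes from 0.07 to −0.31 log2. Over all genes the balance shifted too, from 5381 higher and 4790 lower as deposited to 4490 and 5411, 5048 and 4605, and 3401 and 8597 in the same order. In all 4 scalings 14 members rose, namely Psma1, Psma2, Psma5, Psma7, Psmb2, Psmb6, Psmb7, Psmb8, Psmb9, Psmb10, Psmd4, Psmd5, Psme1 and Psme2. In all 4 scalings 7 fell, namely Psmc2, Psmc5, Psmd8, Psmd11, Psmf1, Psmg2 and Psmg4. Psmc1 was called in both directions, higher after quantile normalization and lower with ribosomal centring.

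**Figure D1:**
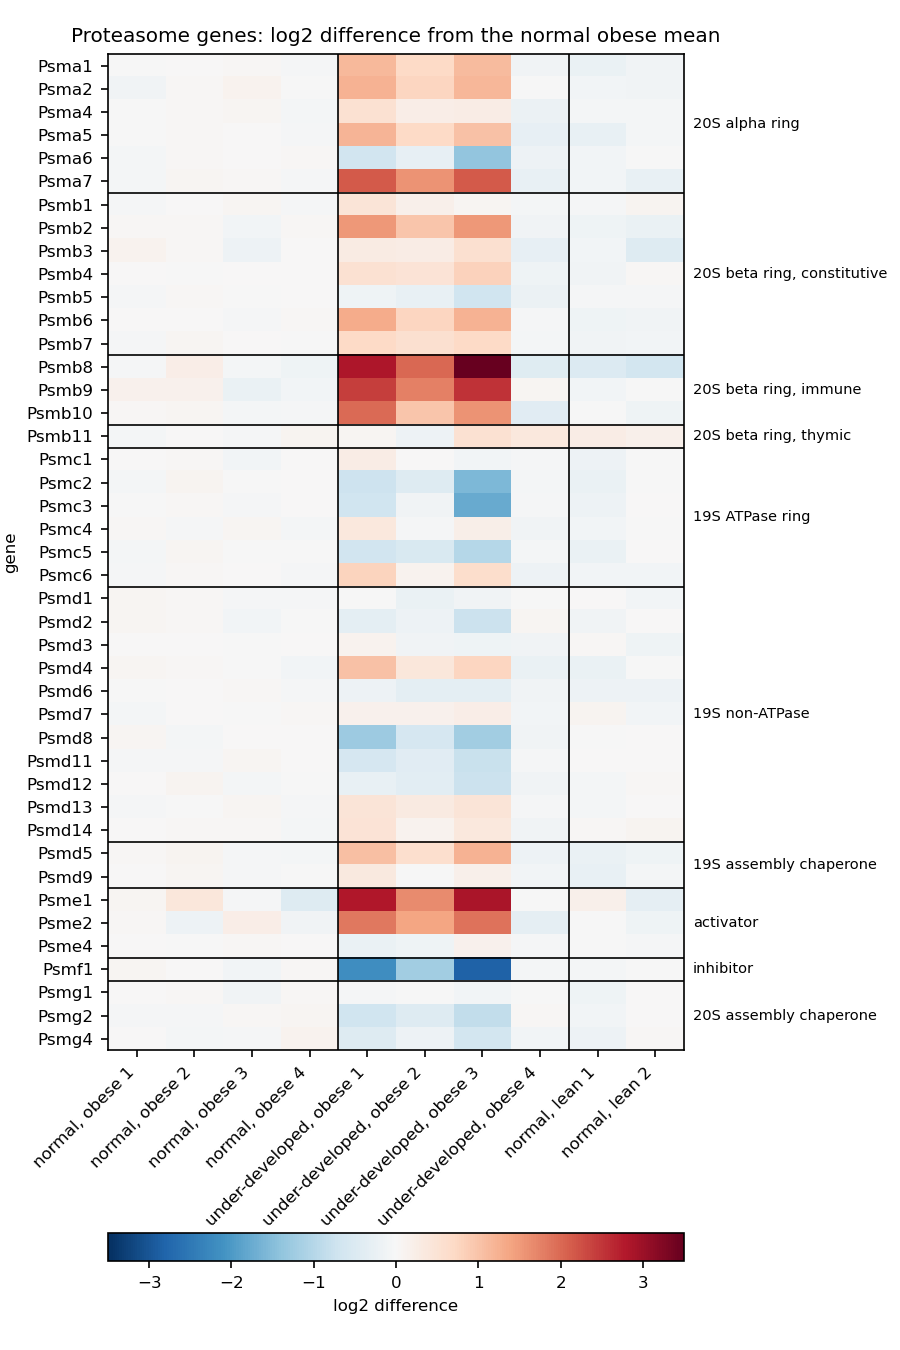
Log2 difference of each of the 43 members (rows, grouped by their place in the complex) from its normal obese mean, for each of the 10 arrays (columns); red is higher and blue is lower. Colour is concentrated in under-developed replicates 1 to 3, where Psmb8 reaches 3.48 and Psmf1 −2.85, while replicate 4 and the lean arrays stay pale.

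In the alpha ring, which forms the gate of the core, 5 of 6 measured genes rose without replicate 4 and 1 fell. Over all genes 29.6% rose and 26.4% fell without it, and these shares stand beside the counts of each part below. Psma7 stood at 9.91, 10.05, 10.02 and 9.92 in the normal obese arrays, 12.11, 11.55, 12.11 and 9.72 in the under-developed arrays and 9.88 and 9.70 in the lean arrays. The arrays of under-developed replicates 1 to 3 were all above the normal range, and replicate 4 was below the normal obese arrays and between both lean ones. RefSeq lists processed pseudogenes of Psma7 and other members, and whether their transcripts reached these probes was not tested. The fitted difference of Psma7 was 1.40 ± 0.47 log2 (SE) with all arrays (limma adjusted p = 0.0703) and 1.95 ± 0.15 without replicate 4, a 3.86-fold difference (limma adjusted p = 5.83e-05). Psma1, Psma2 and Psma5 rose by 0.98, 1.04 and 0.97 without replicate 4. Psma4 rose by 0.34, and did not pass with median centring (0.23) or ribosomal centring (−0.04).

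Psma6 went the other way within the same ring. It stood at 11.41, 11.54, 11.50 and 11.53 in the normal obese arrays, 10.81, 11.19, 10.11 and 11.32 in the under-developed arrays and 11.39 and 11.47 in the lean arrays. All 4 under-developed arrays were below all normal obese arrays, one of 6 members with such a lack of overlap downward (Psma6, Psmb5, Psmd6, Psmd8, Psmd12 and Psmg4), where 10.4% of all genes had it. No member lacked overlap upward, against 7.44% of genes. Both counts include replicate 4, in which the member median was −0.10 log2 from the normal obese mean. The fitted difference of Psma6 was −0.63 ± 0.24 with all arrays (limma adjusted p = 0.0755) and −0.79 ± 0.22 without replicate 4 (limma adjusted p = 0.0136), and it did not pass after quantile normalization (−0.43). Psma7 and Psma6 each occur once per ring in the assembled core, and their probe sets differed in opposite directions on the same 3 arrays.

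Of the 7 constitutive beta genes, 5 rose without replicate 4, 1 fell and 1 did not pass. Psmb6 carries the caspase-like site and stood at 10.15, 10.13, 10.08 and 10.17 in the normal obese arrays, 11.42, 10.88, 11.35 and 10.08 in the under-developed arrays and 9.97 and 10.02 in the lean arrays. Its difference was 0.80 ± 0.26 log2 with all arrays (limma adjusted p = 0.0702) and 1.09 ± 0.14 without replicate 4 (limma adjusted p = 0.000276). A second probe set of Psmb6 differed by 1.15, 0.51, 0.74 and −0.21 in under-developed replicates 1 to 4, the same direction in replicates 1 to 3. Psmb7, of the trypsin-like site, stood at 9.47, 9.59, 9.52 and 9.51 in the normal obese arrays, 10.22, 10.09, 10.22 and 9.45 in the under-developed arrays and 9.39 and 9.43 in the lean arrays. Its difference was 0.47 ± 0.17 with all arrays (limma adjusted p = 0.0728) and 0.66 ± 0.09 without replicate 4 (limma adjusted p = 0.000371).

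Psmb5, of the chymotrypsin-like site, was the constitutive beta gene that fell. It stood at 9.21, 9.27, 9.22 and 9.25 in the normal obese arrays, 9.10, 8.97, 8.55 and 9.04 in the under-developed arrays and 9.21 and 9.20 in the lean arrays. Every under-developed array, replicate 4 included, was below the normal obese arrays. Replicate 4 was also below all of them for Psma7, Psmb8 and Psmb10, which rose without it, so its place is not particular to Psmb5. The fitted difference was −0.32 ± 0.13 with all arrays (limma adjusted p = 0.0839) and −0.36 ± 0.13 without replicate 4 (limma adjusted p = 0.0419), a call that was lost after quantile normalization (−0.26). Among the subunits that carry no cutting site, Psmb2 rose by 1.34, Psmb4 by 0.61 and Psmb3 by 0.37 without replicate 4. Psmb4 passed in 3 of the 4 scalings and was at 0.23 with ribosomal centring. Psmb1 had a difference of 0.24 (limma adjusted p = 0.105) and did not pass, and Psmb3, which passed in the deposited scaling alone of the 4, and Psmb1 were at −0.01 and −0.14 with ribosomal centring.

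The 3 immune beta genes all rose without replicate 4, and each rose in all 4 scalings. Psmb8 and Psmb9 lie on chromosome 20 of the GRCr8 assembly at 4654068 to 4657049 and 4668952 to 4674421, with Tap1, a peptide transporter gene, between them, and Psmb10 lies on chromosome 19. Upstream bases are shown for the immune beta genes and for Psme1 and Psme2, which encode an interferon-induced activator, and for the constitutive Psmb5, because interferon is known to act at the promoters of the immune forms. Of the 43 members, 38 had a promoter in the RefSeq table of GRCr8, and the 250 bases before the start were searched on both strands for the interferon response motif (GAAA, any 2 bases, GAAA) and TGACNNNGC (NFE2L1, a factor of constitutive subunits). For Psmb8, Psmb9, Psme1 and Psme2 the start used for the promoter lies inside the RefSeq span of the gene. Their windows therefore overlap that span, and the window of Psme2 lies wholly within it. Matches are in capitals.
Psmb10 (chr19:50743293-50743542, minus strand): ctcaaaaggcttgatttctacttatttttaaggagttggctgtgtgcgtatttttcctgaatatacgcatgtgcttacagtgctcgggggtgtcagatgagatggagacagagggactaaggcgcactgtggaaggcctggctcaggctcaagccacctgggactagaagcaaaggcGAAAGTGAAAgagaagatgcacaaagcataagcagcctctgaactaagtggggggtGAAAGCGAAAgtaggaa
Psme2 (chr15:33052752-33053001, minus strand): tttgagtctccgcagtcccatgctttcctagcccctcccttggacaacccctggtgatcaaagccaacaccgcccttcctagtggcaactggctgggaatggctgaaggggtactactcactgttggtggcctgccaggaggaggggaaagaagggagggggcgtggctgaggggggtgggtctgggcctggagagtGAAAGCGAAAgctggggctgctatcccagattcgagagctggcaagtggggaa
Psme1 (chr15:33038721-33038970, plus strand): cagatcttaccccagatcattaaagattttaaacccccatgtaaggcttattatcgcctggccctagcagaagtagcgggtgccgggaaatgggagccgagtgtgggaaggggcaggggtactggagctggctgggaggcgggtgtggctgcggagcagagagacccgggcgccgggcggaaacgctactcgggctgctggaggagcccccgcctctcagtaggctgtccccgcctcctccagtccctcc
Psmb8 (chr20:4657032-4657281, minus strand): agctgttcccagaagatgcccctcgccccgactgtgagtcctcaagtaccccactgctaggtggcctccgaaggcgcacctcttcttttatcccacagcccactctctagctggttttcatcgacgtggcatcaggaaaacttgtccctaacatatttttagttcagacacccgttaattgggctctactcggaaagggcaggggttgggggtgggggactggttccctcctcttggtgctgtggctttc
Psmb9 (chr20:4668750-4668999, plus strand): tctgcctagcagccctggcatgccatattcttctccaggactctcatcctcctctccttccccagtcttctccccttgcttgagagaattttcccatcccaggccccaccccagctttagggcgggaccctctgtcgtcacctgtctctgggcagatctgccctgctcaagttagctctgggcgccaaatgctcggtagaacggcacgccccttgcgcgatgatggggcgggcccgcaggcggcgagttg
Psmb5 (chr15:32047380-32047629, minus strand): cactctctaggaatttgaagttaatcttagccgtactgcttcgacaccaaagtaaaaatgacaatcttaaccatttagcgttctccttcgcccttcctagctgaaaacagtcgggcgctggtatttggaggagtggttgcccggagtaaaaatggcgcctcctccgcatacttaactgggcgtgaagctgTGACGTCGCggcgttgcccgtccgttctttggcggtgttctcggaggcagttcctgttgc
The interferon response letters occurred 2 times before Psmb10 and once before Psme2, and TGACNNNGC once before Psmb5, while Psme1, Psmb8 and Psmb9 had no match in this window. Tap1, the neighbour of Psmb9, had an interferon response match 121 to 112 bases before its own start (TTTCGGTTTC, on the other strand). That match lies outside the window of Psmb9. In all, the interferon response motif was found before 5 of 38 members (Psma4, Psmb3, Psmb10, Psmd7 and Psme2), against 3.23% of 19005 protein-coding promoters. With the 50 bases after the start added, Psmb8 and Psmg4 joined them, against 3.63%. TGACNNNGC was found before 6 members (10.7% of all promoters), Psmb2, Psmb5, Psmb6, Psmd1, Psmd9 and Psme4. A match describes letters only. Of the 5 genes with the interferon response motif, Psmb10 and Psme2 rose in all 4 scalings, and Psma4, Psmb3 and Psmd7 did not.

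Psmb8, the immune form of the chymotrypsin-like subunit, had the largest rise of all members. It stood at 6.94, 7.21, 6.89 and 6.83 in the normal obese arrays, 9.81, 8.99, 10.45 and 6.55 in the under-developed arrays and 6.49 and 6.34 in the lean arrays. Replicates 1 to 3 were above every other array by over 1 log2, and replicate 4 was below all normal obese arrays and above the lean ones. The fitted difference was 1.98 ± 0.70 with all arrays (limma adjusted p = 0.0717) and 2.78 ± 0.29 without replicate 4, a 6.87-fold difference (limma adjusted p = 0.000136).

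Psmb9, which takes the place of Psmb6, stood at 6.58, 6.56, 6.20 and 6.33 in the normal obese arrays, 8.84, 8.19, 8.95 and 6.48 in the under-developed arrays and 6.33 and 6.40 in the lean arrays. Replicate 4 lay within the normal obese range. The difference was 1.70 ± 0.48 with all arrays (limma adjusted p = 0.0702) and 2.25 ± 0.19 without replicate 4 (limma adjusted p = 7e-05). Psmb10, which takes the place of Psmb7, stood at 7.30, 7.34, 7.18 and 7.21 in the normal obese arrays, 9.24, 8.24, 8.82 and 6.87 in the under-developed arrays and 7.24 and 7.11 in the lean arrays. Replicate 4 had the lowest Psmb10 value of the 10 arrays. The difference was 1.03 ± 0.43 with it (limma adjusted p = 0.0938) and 1.51 ± 0.20 without it (limma adjusted p = 0.000412).

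To compare each immune form with the subunit it replaces, the log2 difference between the 2 probe sets was taken within each array and set against its mean in the normal obese arrays. Such a change between groups has a meaning where the level itself has not. The change in Psmb8 minus Psmb5 was 2.98, 2.29, 4.17 and −0.21 log2 in under-developed replicates 1 to 4, around an SD of 0.15 in the normal obese arrays. The change in Psmb9 minus Psmb6 was 1.14, 1.03, 1.32 and 0.12, around an SD of 0.17. The change in Psmb10 minus Psmb7 was 1.28, 0.41, 0.86 and −0.32, around an SD of 0.08. In all 3 pairs the immune form gained on the constitutive one in replicates 1 to 3, most in the pair whose constitutive gene was lower.

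Over the 4 against 4 arrays the mean change was 2.31 ± 0.93 (SE) for Psmb8 minus Psmb5, 0.90 ± 0.28 for Psmb9 minus Psmb6 and 0.56 ± 0.34 for Psmb10 minus Psmb7. None passed a two-sided exact permutation test (p = 0.143, 0.0857 and 0.171, adjusted over the 3 pairs p = 0.171 each), in which 0.0286 is the smallest p the design allows. Without replicate 4 the changes were 3.15, 1.16 and 0.85, with no overlap between the groups, and the exact permutation p of 0.0571 for each is the smallest that 3 against 4 arrays allow. Since replicate 4 was left out with its nearness to the normal arrays known, this separation is no independent support. In the lean arrays the pairs differed from the normal obese mean by −0.52, 0.08 and 0.02, and 4 against 2 arrays cannot go below p = 0.133, so no exact permutation test was made.

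**Figure D2:**
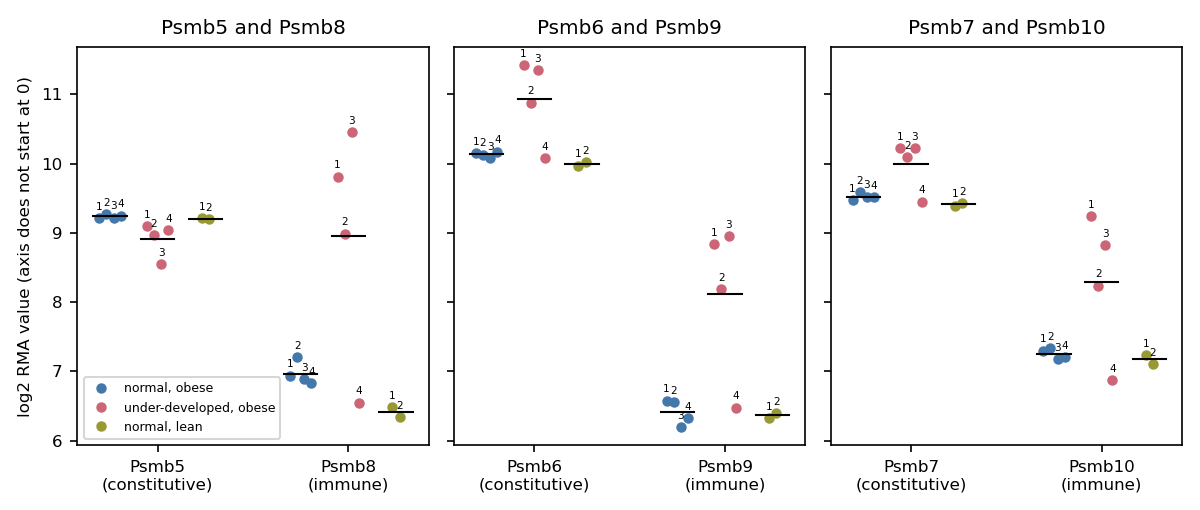
Log2 RMA values of each constitutive beta gene and of the immune gene that can replace it, by group; points are arrays, numbered by replicate, and bars are group means. Psmb8, Psmb9 and Psmb10 are high in under-developed replicates 1 to 3 and near the normal arrays in replicate 4, while Psmb5 lies slightly lower in all 4 under-developed arrays.

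Psmb11, the thymic form of the chymotrypsin-like subunit, stood between 5.26 and 5.97 on all arrays, low on the array's scale. Its difference was 0.19 ± 0.15 with all arrays (limma adjusted p = 0.341) and 0.14 ± 0.16 without replicate 4 (limma adjusted p = 0.485).

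Of the 3 measured activators, which open the core without using ubiquitin, 2 rose without replicate 4 and 1 did not pass. Psme1 and Psme2 encode the subunits of PA28, an interferon-induced activator, and are neighbours on chromosome 15 (33038962 to 33041849 and 33048452 to 33053055, GRCr8). Psme1 stood at 6.45, 6.80, 6.36 and 5.93 in the normal obese arrays, 9.19, 8.04, 9.25 and 6.38 in the under-developed arrays and 6.58 and 6.07 in the lean arrays. The normal obese arrays spread by an SD of 0.356, and replicates 1 to 3 were above all of them. The difference was 1.83 ± 0.58 log2 with all arrays (limma adjusted p = 0.0702) and 2.44 ± 0.32 without replicate 4, a 5.43-fold difference (limma adjusted p = 0.000363). Psme2 stood at 8.77, 8.54, 8.96 and 8.61 in the normal obese arrays, 10.57, 10.09, 10.61 and 8.40 in the under-developed arrays and 8.70 and 8.56 in the lean arrays. Its difference was 1.20 ± 0.44 with all arrays (limma adjusted p = 0.0739), and it rose by 1.70 ± 0.16 without replicate 4 (limma adjusted p = 9.24e-05).

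Psme4 encodes PA200, an activator known for the removal of acetylated histones in spermatids. It stood at 11.78, 11.76, 11.81 and 11.79 in the normal obese arrays, 11.56, 11.63, 11.93 and 11.74 in the under-developed arrays and 11.76 and 11.73 in the lean arrays. Replicates 1, 2 and 4 were slightly below and replicate 3 slightly above the normal obese arrays. The difference was −0.07 ± 0.10 with all arrays, with a 95% interval from −0.30 to 0.16 (limma adjusted p = 0.62), and it was 0.20 after quantile normalization. Without replicate 4 it was −0.08 ± 0.11, and it passed, as lower, with ribosomal centring alone of the 4 scalings (−0.46). On the arrays of replicates 1 to 3 the spermatid list differed by −2.64, −0.70 and −4.36.

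Psmf1 had the largest fall of all members. Its product PI31 binds the core and inhibits it in vitro. Psmf1 stood at 12.22, 12.17, 12.07 and 12.20 in the normal obese arrays, 9.98, 10.95, 9.32 and 12.08 in the under-developed arrays and 12.10 and 12.14 in the lean arrays. Replicates 3 and 1 were lowest, replicate 2 was between them and the normal arrays, and replicate 4 overlapped the normal obese arrays. The fitted difference was −1.58 ± 0.50 with all arrays (limma adjusted p = 0.0702) and −2.08 ± 0.31 without replicate 4, a 4.24-fold lower value (limma adjusted p = 0.000664), and it lay between −2.46 and −1.81 over the 4 scalings.

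The ATPases of the 19S cap form 1 ring but did not move together. Without replicate 4, Psmc2, Psmc3 and Psmc5 fell, Psmc6 rose, and Psmc1 and Psmc4 did not pass. Psmc2 stood at 12.01, 12.17, 12.07 and 12.08 in the normal obese arrays, 11.35, 11.64, 10.52 and 12.01 in the under-developed arrays and 11.85 and 12.06 in the lean arrays. Psmc3 stood at 11.18, 11.23, 11.14 and 11.20 in the normal obese arrays, 10.48, 11.08, 9.42 and 11.15 in the under-developed arrays and 11.02 and 11.21 in the lean arrays. For both, replicate 3 was far below the other arrays, and for Psmc3 replicate 2 was only 0.10 log2 below the normal obese mean. With all arrays the differences were −0.70 ± 0.27 for Psmc2 (limma adjusted p = 0.0819) and −0.65 ± 0.34 for Psmc3 (limma adjusted p = 0.154). Without replicate 4 they were −0.91 ± 0.23 for Psmc2 (limma adjusted p = 0.00908) and −0.86 ± 0.32 for Psmc3 (limma adjusted p = 0.0475), and Psmc3 did not pass after quantile normalization (−0.53). Psmc5 fell by 0.73 and Psmc6 rose by 0.51, and Psmc6 did not pass with median centring (0.40) or ribosomal centring (0.13).

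Among the 11 non-ATPase genes of the cap, 5 fell, 3 rose and 3 did not pass without replicate 4. The shares over all genes were 26.4% lower and 29.6% higher. Of these 11 genes Psmd8 fell most. It stood at 9.68, 9.56, 9.63 and 9.63 in the normal obese arrays, 8.35, 9.03, 8.39 and 9.51 in the under-developed arrays and 9.61 and 9.64 in the lean arrays. All 4 under-developed arrays were below the normal obese ones, replicate 4 by the least, and the difference was −0.80 ± 0.24 with all arrays (limma adjusted p = 0.0702) and −1.03 ± 0.16 without replicate 4 (limma adjusted p = 0.000823). Psmd11 fell by 0.59, Psmd12 by 0.46, Psmd2 by 0.43 and Psmd6 by 0.29. Of these, Psmd12, Psmd2 and Psmd6 did not pass after quantile normalization (−0.12, −0.05 and 0.01). Against the lean arrays, also without replicate 4, Psmd11 and Psmd12 passed as lower. Psmd2 (−0.38, limma adjusted p = 0.0884) and Psmd6 (−0.11, limma adjusted p = 0.429) did not pass there.

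Psmd4, the receptor of the cap for ubiquitin chains, had a difference of 0.49 ± 0.24 with all arrays (limma adjusted p = 0.136). It rose by 0.73 ± 0.15 without replicate 4 (limma adjusted p = 0.00287), in all 4 scalings. Psmd14, the enzyme of the cap that removes the chains, rose by 0.32 and did not pass with median centring (0.22) or ribosomal centring (−0.06). Psmd13 rose by 0.40 and did not pass with ribosomal centring (0.02). Psmd1, Psmd3 and Psmd7 had differences of −0.12, −0.05 and 0.18 and did not pass. The members of the cap therefore spread to both sides of 0, from −1.03 (Psmd8) to 0.73 (Psmd4).

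Assembly chaperones, which build the particle and leave it, also differed. Psmd5 of the cap, which stood between 7.26 and 7.43 in the normal obese arrays and at 8.39, 7.93, 8.56 and 7.15 in under-developed replicates 1 to 4, had a difference of 0.67 ± 0.27 with all arrays (limma adjusted p = 0.0876) and rose by 0.96 ± 0.15 without replicate 4 (limma adjusted p = 0.000779). Psmd9 did not pass (0.17). For the core, Psmg2 fell by 0.66 ± 0.11 (limma adjusted p = 0.0013) and Psmg4 by 0.42 ± 0.13 (limma adjusted p = 0.021) without replicate 4, in all 4 scalings. With all arrays their differences were −0.49 ± 0.18 (limma adjusted p = 0.0746) and −0.34 ± 0.14 (limma adjusted p = 0.0864). Psmg1, the partner of Psmg2, differed by −0.04 ± 0.09 (limma adjusted p = 0.74).

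**Figure D3:**
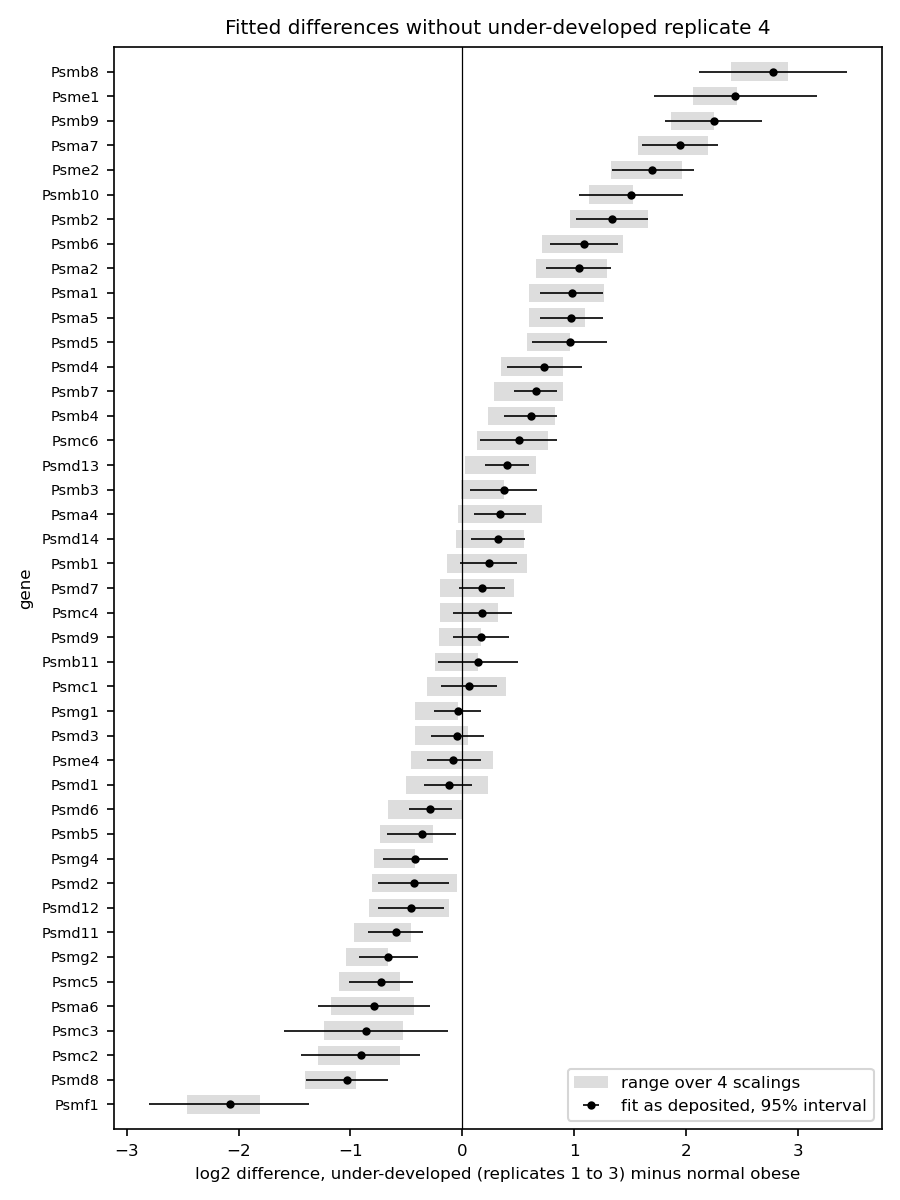
Fitted log2 difference between under-developed replicates 1 to 3 and the 4 normal obese arrays for each of the 43 members; points and lines are the limma fit of the deposited values with its 95% interval, and grey bars span the fitted differences over 4 scalings. Members range from −2.08 (Psmf1) to 2.78 (Psmb8), and the grey bars of the members near the middle cross 0.

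The size of the differences varied with the array. For all 14 members that rose in every scaling, replicate 2 had the smallest difference of replicates 1 to 3, as it did for 88.5% of all genes called higher, and replicate 3 had the largest for 7 of the 14, against 69.4%. For all 7 that fell in every scaling, replicate 2 also had the smallest difference, against 76.2% of genes called lower, and replicate 3 had the largest for 6 of the 7, against 65.9%. The shares over all genes are of genes called in the deposited scaling, a looser rule than the 4 scalings asked of the members. The spermatocyte list, at −2.67, −0.81, −4.03 and 0.00 in replicates 1 to 4, was also nearest to normal in replicate 2 of the first 3 and farthest in replicate 3. The median of the members differed from the normal obese mean by 0.35, 0.11, 0.22 and −0.10 log2 in replicates 1 to 4, and the median of all genes by 0.03, −0.02, 0.17 and about 0. At least 2-fold higher were 13, 5 and 12 of 43 members in replicates 1 to 3, against 15.5%, 7.56% and 19.2% of all genes. At least 2-fold lower were 2, 1 and 5 members, against 15.6%, 6.18% and 16.8%.

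Cell type markers moved with these results. In under-developed replicates 1 to 3 the macrophage list (10 of 10 genes measured, with a mean level from 7.11 to 7.56 in normal obese and from 7.27 to 9.56 in under-developed arrays) was higher, and 9 of its genes rose and 1 fell without replicate 4. The Sertoli list (9 of 10 measured) differed by 1.25, 0.94, 1.42 and 0.04 in replicates 1 to 4, the endothelial list (6 of 8) by 1.14, 0.80, 1.37 and 0.01, the Leydig list (6 of 7) by 1.40, 0.77, 1.47 and −0.32, and the lymphocyte list (9 of 10) by 0.62, 0.34, 0.63 and 0.06. Without replicate 4 all 6 endothelial genes rose, as did 4 of the 6 Leydig genes, while 6 Sertoli genes rose, 1 fell and 2 did not pass. Of the 9 lymphocyte genes 4 rose, led by the general leukocyte gene Ptprc (2.70), Lck fell by 0.56, and 4 did not pass, among them the T cell genes Cd3d (−0.07) and Cd3e (0.00), while Cd3g rose by 0.49. The spermatid and spermatocyte lists fell in 9 and 10 of their 10 genes without replicate 4. Over all genes 29.6% rose and 26.4% fell without it. None of the genes of these 7 lists was called with all arrays. There 3 to 10 genes of each list had an unadjusted limma p under 0.05, against 46.6% of all genes. The part of these cell types in the values of the proteasome genes was not tested.

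**Figure D4:**
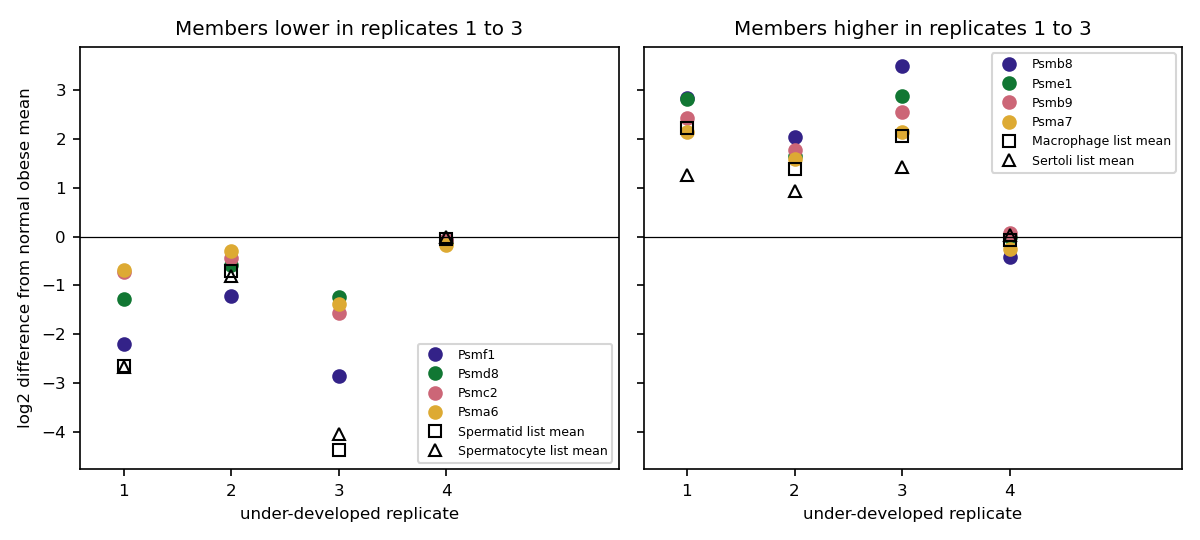
Log2 difference from the normal obese mean in under-developed replicates 1 to 4 for 4 members that were lower (left) and 4 that were higher (right), with the means of the spermatid and spermatocyte lists (left) and of the macrophage and Sertoli lists (right) as open symbols. Replicate 2 lies nearer 0 than replicates 1 and 3, and replicate 4 lies nearest 0, from −0.42 (Psmb8) to 0.07 (Psmb9).

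Accessory genes of the pathway also went both ways. Of 26 listed (ubiquitin activation, shuttling, assembly and regulation), 19 were measured. Without replicate 4, 11 rose, 5 fell and 3 did not pass, against 29.6% of all genes higher and 26.4% lower. With all arrays 0 passed, and 11 had an unadjusted limma p under 0.05, against 46.6% of all genes. Uba1 and Uba6, the ubiquitin-activating enzymes, differed by 1.99, 1.35, 1.92 and 0.04 and by 2.25, 1.74, 2.30 and 0.03 in replicates 1 to 4. Nfe2l1, the factor that drives transcription of subunit genes when proteasome activity is low, differed by 1.57, 1.03, 1.77 and −0.10. Uchl5, a deubiquitinase of the cap, differed by −1.47, −0.48, −2.62 and −0.05 and was lowest in replicate 3. Pomp, the chaperone of core maturation, which was named here after its values were seen, differed by 1.61, 1.08, 1.63 and −0.28 in the same replicates. Its fitted difference was 1.01 ± 0.37 with all arrays (limma adjusted p = 0.0751), and it rose by 1.44 ± 0.14 without replicate 4 (limma adjusted p = 0.000114).

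Of 16 listed genes of class I presentation and interferon signalling, 15 were measured. Without replicate 4, 13 rose, against 29.6% of all genes, and 2 did not pass, Nlrc5 (0.21) and Calr (0.10). The median difference was 1.70 log2 against 0.07 over all genes, with smaller rises for Canx (0.51) and Pdia3 (0.41). With all arrays 0 passed, and 12 had an unadjusted limma p under 0.05, against 46.6% of all genes. B2m, the light chain of class I molecules, stood at 11.17, 11.15, 11.09 and 10.80 in the normal obese arrays, 13.49, 13.24, 13.62 and 10.74 in the under-developed arrays and 11.06 and 10.32 in the lean arrays. Erap1, which trims peptides made by the proteasome, differed by 3.14, 2.46, 3.35 and −0.13 in replicates 1 to 4, Jak2 by 3.12, 2.26, 3.12 and −0.17 and the interferon gamma receptor chain gene Ifngr2 by 2.37, 1.93, 2.31 and −0.15. Tap1, which lies between Psmb8 and Psmb9, differed by 1.54, 1.21, 1.83 and 0.03 in the same replicates. Its fitted difference was 1.16 ± 0.34 with all arrays (limma adjusted p = 0.0702), and it rose by 1.53 ± 0.16 without replicate 4 (limma adjusted p = 0.000136), a smaller difference than those of its neighbours Psmb8 (2.78) and Psmb9 (2.25). The difference between these genes was not tested.

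The second comparison set the normal obese arrays against the lean arrays, both of normally developed testes. In limma 0 of 43 members were called at an adjusted p under 0.05, and 0% of all genes. At an unadjusted p under 0.05 there were 0 members and 0.44% of all genes, and the fit of these groups alone and the fit with array weights also called 0 members. The fitted differences, obese minus lean, ranged from −0.22 (Psmb11) to 0.55 (Psmb8), with 38 above 0 and 5 below, where 9455 of all genes were above and 8711 below. The split of the members was 25 and 18 with ribosomal centring and 30 and 13 without lean replicate 1. Their median size was 0.069 log2 against 0.073 over all genes. The members with the smallest p were Psmd6 (0.18 ± 0.11), Psmb11 (−0.22 ± 0.19) and Psmb3 (0.26 ± 0.22), each with a limma adjusted p of 1. Psmb8 was higher in each normal obese array (6.83 to 7.21) than in both lean arrays (6.49 and 6.34), but its 95% interval in the shared fit, which includes the wide under-developed group, ran from −1.39 to 2.50. With 2 lean arrays the precision is low.

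The third comparison set the under-developed arrays against the lean arrays, and shares its under-developed arrays with the first. In limma 0 members were called with all arrays, as were 0% of all genes (15 members and 31.8% of genes at an unadjusted p under 0.05). Without replicate 4, 27 members were called, against 48.8% of all genes; 19 rose and 8 fell, where 25.6% and 23.2% of all genes did. This balance depended on the scaling as well, and ribosomal centring gave 14 rises and 18 falls (2974 and 8771 over all genes). Arrays centred on their medians gave 17 and 11 (3905 and 5005 over all genes), and quantile normalization 23 and 6 (4401 and 3995). With all arrays the differences were 2.53 ± 0.86 log2 for Psmb8, 1.75 ± 0.58 for Psmb9, 1.58 ± 0.57 for Psma7, 1.89 ± 0.71 for Psme1, −0.80 ± 0.29 for Psmd8 and −1.54 ± 0.61 for Psmf1, each with a limma adjusted p of 0.154. Without replicate 4 they were 3.33 ± 0.35 log2 for Psmb8, 2.30 ± 0.23 for Psmb9, 2.13 ± 0.18 for Psma7, 2.50 ± 0.38 for Psme1, −1.03 ± 0.19 for Psmd8 and −2.04 ± 0.37 for Psmf1, with limma adjusted p from 0.000157 to 0.0028. Against normal obese testes the same members differed by 2.78, 2.25, 1.95, 2.44, −1.03 and −2.08.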

How the data were processed

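RNA of whole testes had been hybridised to 10 Affymetrix rat arrays. The values deposited by the authors are log2 expression values per probe set, made by RMA per the submitters' processing notes, and the software version, settings and build are not given in the sources used here. Of 36685 probe sets, 18511 carried 1 gene symbol, 575 several and 17599 none. Where a gene had several probe sets, that of highest mean across the 10 arrays stood for it (18166 genes, no filter on dim genes). Proteasome genes have many processed pseudogenes, and cross-hybridisation of probes was not assessed.

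Sample titles gave the groups. A single limma model (version 3.58.1 in R 4.3.3, lmFit and eBayes) estimated the 3 group means, with Benjamini-Hochberg adjustment across every gene tested. A further planned promoter motif is not reported here. Pairs of genes were tested by two-sided exact permutation over arrays. These tests were run with scipy 1.17.1 in Python 3.11.15. The members, lists and rule for naming genes were chosen with earlier results of these data known. The rule named Psma7, Psmb5 to Psmb10, Psme1, Psme2, Psme4 and the 5 largest rises and falls. It also named the 3 smallest p for obese against lean and up to 4 genes of each pathway list. Other members are given by their fitted difference. Outside the rule, values by array are also given for Psmd5, Pomp and Tap1, and for members flagged below. Tested on simulated data, in which 200 of 18166 genes differed between under-developed and normal obese arrays and no array stood apart, the model called 54% of genes shifted by 1 log2, 95% of those shifted by 3 log2 and 8 unshifted genes. Each simulated gene had the same spread in all groups. In the deposited data the SD of Psma7 was 1.13 in the under-developed and 0.071 in the normal obese arrays, so these shares do not carry over. Alternatives were 3 other scalings, an offset, a filter on dim genes, the mean of probe sets, other moderation, array weights, a fit of the compared groups alone, a replicate block and the omission of each array in turn.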

Additional observations from a re-analysis of the deposited data

Results flagged for a closer look

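Of 92 groups of 4 arrays tested for a distant array over the members and pairs, 4 had one, where chance gives about 1 in 20. Psmb2 was at 9.67 in normal obese replicate 3 and between 9.80 and 9.81 in the other normal obese arrays. Psmd13 was at 9.89 in the same array, with the others between 9.78 and 9.79. Psmb7 was at 9.45 in under-developed replicate 4, with the others between 10.09 and 10.22. Psmd3 was at 9.13 in under-developed replicate 1, with the others between 8.85 and 8.89.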

How the results depend on the processing

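With all arrays 0 members passed in the comparison of under-developed with normal obese testes, and array weights gave 31 (20 higher, 11 lower), where 9862 of 18166 genes were called (5151 higher, 4711 lower). Leaving out an array gave between 0 and 33 members, and only the omission of under-developed replicate 4 gave any. Without it, the scalings added after the data were seen gave 29, 32 and 30 members for median centring, ribosomal centring and quantile normalization. Against lean testes the counts were 0 for all arrays, 28 with array weights and between 0 and 27 with an array left out. For the accessory genes they were 0, 13 and between 0 and 16, and for the class I genes 0, 13 and between 0 and 13, with the highest counts again without replicate 4. Psmb9 minus Psmb6 was 1.03 with the mean of all probe sets, with an unadjusted exact permutation p of 0.0286 that did not pass after adjustment over the 3 pairs (0.0857); with an array left out the changes ranged from 1.69 to 3.15 for Psmb8 minus Psmb5, 0.76 to 1.16 for Psmb9 minus Psmb6 and 0.32 to 0.85 for Psmb10 minus Psmb7. With the replicate block the fits called 0 members in each of the 3 comparisons, and the exact sign-flip p of the pairs was 0.25, 0.125 and 0.25 in place of the permutation p; same-numbered arrays shared only a number (correlations of their deviations from 0.0069 to 0.26, and 1 of 4 under-developed arrays correlated best with its own number). The cause of these changes was not tested. Fitted differences with all arrays changed sign under ribosomal centring for Psma4 (−0.06), Psmb1 (−0.10), Psmb3 (−0.06), Psmb11 (−0.07), Psmc1 (−0.23), Psmc4 (−0.16), Psmd7 (−0.16), Psmd9 (−0.16) and Psmd14 (−0.05); for Psmc1 with median centring (−0.04) and without under-developed replicate 1 (from −0.04 to 0.07 over the arrays left out in turn); for Psmd1 (0.18), Psmd3 (0.02) and Psme4 (0.20) after quantile normalization; and for Psmd3 with array weights (0.03). Psma8 minus Psma7 could not be computed. The number of arrays, above all 2 of lean rats, limits the precision.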
